A study of Mus musculus with 2 samples.

Results

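The miRNA hairpins described here have textbook roles in lipid and sugar metabolism and were followed in small RNA (sRNA) libraries of J1 mouse ES cells. They are Mir103-1, Mir103-2, Mir107, Mir33, Mir122 and Mir378a. They were chosen by name, not by their values, and make up 6 of the 1174 miRNA hairpins whose gene symbol starts with Mir in the GENCODE mouse annotation. Sequence tags, which are distinct reads with their counts, were taken as theirs when they matched a hairpin without mismatch. The 6 hairpins held 98 distinct tags of the 8580 found on all hairpins, 80 with DMSO and 83 with AICAR.

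J1 is a mouse ES cell line, grown here without feeder cells on gelatin in serum-replacement medium with LIF, the cytokine that maintains self-renewal. For its real-time PCR cultures the paper names medium with serum and LIF. AICAR is a cell-permeable compound that activates AMP-activated protein kinase, the energy sensor of the cell. It was dissolved in DMSO and given at 1 mM for 24 h, and the control cells received DMSO of the same volume for the same time. Each condition had 1 library, and the control carries the title J1_U but the treatment label DMSO. No spread between cultures could be estimated, so every fold change, the AICAR value over the DMSO value, compares 2 libraries, not 2 conditions.

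MiRNAs are cut from a hairpin precursor by Drosha and Dicer, and the arm that is loaded into Argonaute finds its messages mainly through the seed, bases 2 to 8 from the 5′ end. The arm toward the 5′ end of the hairpin is called 5p and the other 3p. MiR-103 and miR-107 lie in introns of the pantothenate kinase genes, which make the enzymes of the first step of coenzyme A synthesis, and are known for dampening insulin sensitivity in liver and fat. MiR-33 lies in an intron of Srebf2, the gene of a master regulator of cholesterol synthesis, and represses the cholesterol exporter Abca1. MiR-122 is the dominant miRNA of hepatocytes, and miR-378a lies in Ppargc1b, the gene of a coactivator of mitochondrial metabolism.

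The mature sequences show why some of these miRNAs share reads and others do not, and are given from RefSeq (GRCm38.p6), in which 4 of the 6 hairpins were matched. The capitals mark the seed, and the lines run from the 3p arms of the miR-103 and miR-107 family through both arms of miR-33 to the rarer 5p arms of the family.
miR-103-3p: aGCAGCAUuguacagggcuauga
miR-107-3p: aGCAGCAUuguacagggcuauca
miR-33-5p: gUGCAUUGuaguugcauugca
miR-33-3p: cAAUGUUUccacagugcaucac
miR-103-1-5p: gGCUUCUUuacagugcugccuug
miR-103-2-5p: aGCUUCUUuacagugcugccuug
miR-107-5p: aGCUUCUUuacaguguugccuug

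MiR-103-3p is the same from Mir103-1 and Mir103-2, and differed from miR-107-3p only by G22C, with positions counted from 1 at the 5′ end of the mature sequence. A tag of 21 nt or less that starts at the usual 5′ end can therefore not tell them apart. The seed GCAGCAU was carried by 2 mature miRNAs of the RefSeq table, miR-103-3p and miR-107-3p, whereas UGCAUUG was carried by miR-33-5p alone. The 5p arms of the family shared the seed GCUUCUU. Mir103-1 and Mir103-2 could be told apart by G1A on this arm, and Mir103-2 and Mir107 by C16U. MiR-378a-3p shared its seed with miR-378c, and no miRNA of the table had the seed of miR-122-5p.

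In GRCm38, Mir103-1 (ENSMUSG00000065553.1) lies at chr11:35782396-35782481 on the plus strand in an intron of Pank3. Mir103-2 (ENSMUSG00000065563.1) lies at chr2:131288052-131288137 on the plus strand in an intron of Pank2, and Mir107 (ENSMUSG00000065594.1) at chr19:34820687-34820773 on the minus strand in an intron of Pank1. Mir33 (ENSMUSG00000065465.1) lies at chr15:82198122-82198190 on the plus strand in an intron of Srebf2. Mir378a (ENSMUSG00000105200.1) lies at chr18:61397835-61397900 on the minus strand in an intron of Ppargc1b. Mir122 (ENSMUSG00000065402.1), at chr18:65248861-65248926 on the plus strand, was the only one of the 6 that the annotation places in an exon, that of the lincRNA AC157910.3. All 6 lie on the strand of their host.

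The DMSO library held 18870345 clean reads and the AICAR library 21091226, in tags of 18 to 44 nt, and 1 read was worth 0.0530 and 0.0474 RPM, respectively, where RPM is reads per 1000000 clean reads. Reads on miRNA hairpins made up 11.6% of the clean reads with DMSO and 15.7% with AICAR. Of the clean reads, those on a list of 9 annotated hairpins of the miR-290 and miR-302 clusters, which mark ES cells, summed to 31090 RPM with DMSO and 53920.0 RPM with AICAR. The list does not hold every hairpin of the clusters. Most of the sum came from the miR-290 cluster, with miR-293-3p at 11544 and 19197 RPM. The miR-302 arms had at most 7.79 RPM. Reads are PCR products without molecular identifiers, so the 95% intervals given here cover counting error only.

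The 6 hairpins together took 133424 reads with DMSO and 232736 with AICAR, which was 6.12% and 7.02% of all reads on hairpins. Nearly all were miR-103-3p and miR-107-3p, and the other miRNAs followed in the order miR-378a-3p, miR-33-5p and miR-122-5p in both libraries. Reads were found on 10 arms, of which 7 had at least 1 RPM in at least 1 library, counting as an arm a loop tag of Mir33 that is described with miR-33. Among these 7, the fold change of miR-122-5p was past 2, and none was at or under 0.5. Over the 509 miRNA arms tested in the same way, 12% were at or above 2 and 10.2% at or under 0.5. RPM was higher with AICAR for 6 of the 7 arms, beside 56.8% of all arms tested. Of these 6, miR-103-3p and miR-107-3p share tags and are not independent. MiR-103-2-5p had only 21 and 27 reads, and the interval of its fold change was 0.626 to 2.14. The median log2 fold change was 0.56 for the 7 arms and 0.13 for all arms. The loop tag was the arm with lower RPM, and the 6 others had a median of 0.59.

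**Figure D1:**
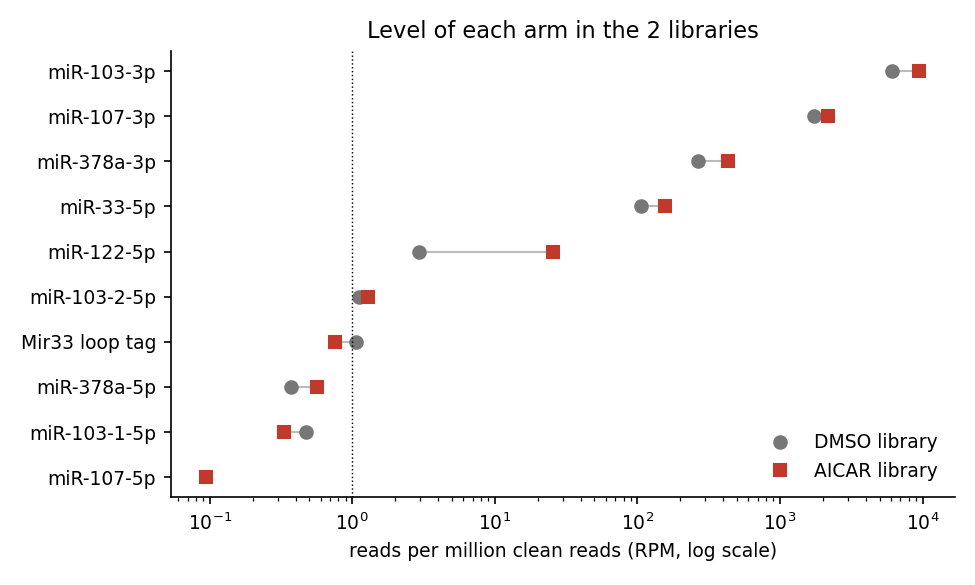
RPM (log scale) of each arm with reads, for the DMSO library (circles) and the AICAR library (squares), 1 library each, with a dotted line at 1 RPM. MiR-103-3p lay highest at 6123 and 9459.8 RPM, miR-122-5p had the widest gap between the libraries, and miR-107-5p had reads in the AICAR library only.

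MiR-103-3p, the most abundant of the group, was the fourth most abundant miRNA arm in both libraries. It had 115541 reads (6123 RPM) with DMSO and 199519 reads (9459.8 RPM) with AICAR, a fold of 1.54 (95% interval 1.53 to 1.56). Its share of the reads assigned to miRNA arms was 5.32% and 6.03%. MiR-107-3p had 32899 reads (1743 RPM) with DMSO and 45978 (2180.0 RPM) with AICAR, a fold of 1.25 (1.23 to 1.27). These totals count the shared tags in full for both miRNAs, and the value for miR-107-3p was the one most changed by them.

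When the reads of the family were split by what they match, the miRNAs separated from the tags they share. Tags that match only miR-103 had 93378 and 173783 reads, a fold of 1.67 (1.65 to 1.68). Tags that match only miR-107 had 10405 and 20113 reads, a fold of 1.73 (1.69 to 1.77). The intervals of these fold changes do not overlap, but both values lie close together compared with the shared tags. The 11 shared tags had 22494 and 25865 reads, a fold of 1.03 (1.01 to 1.05), and their share of the family was 17.8% with DMSO and 11.8% with AICAR. The low fold change of miR-107-3p as a whole thus came with counting the shared tags, which made up most of its reads. Which miRNA the shared tags belong to cannot be told from their sequence. Apart from rare tags with a shifted start, shared tags have at most 21 nt and the others at least 22 nt. The split by match is therefore also a split by length. The pooled tags of all other hairpins had folds of 0.994 at 21 nt, 1.47 at 22 nt and 1.53 at 23 nt. The part of tag length in the values of the family was not tested. Together, without counting a tag in 2 places, the family had 126277 reads (6692 RPM) with DMSO and 219761 (10419.5 RPM) with AICAR, a fold of 1.56 (1.55 to 1.57).

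The tags that carry this difference are given as sequenced, with the base at position 22 in capitals where it is read and, in the last, with capitals on the A A that follows the 23 nt form. Both miR-103 hairpins encode the first A, and only Mir103-2 encodes the second as well.
23 nt tag of miR-103: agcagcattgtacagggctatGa
23 nt tag of miR-107: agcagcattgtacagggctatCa
21 nt tag of both: agcagcattgtacagggctat
25 nt tag of Mir103-2: agcagcattgtacagggctatgaAA

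The 23 nt tag of miR-103 was read 69591 times with DMSO and 138035 times with AICAR, a fold of 1.77 (1.76 to 1.79), and that of miR-107 7189 and 15216 times, a fold of 1.89 (1.84 to 1.95). The 21 nt tag of both was read 20101 and 24027 times, a fold of 1.07 (1.05 to 1.09). Full-length tags of both miRNAs were thus further above their DMSO level than the trimmed tag they share. At position 22 of 23 nt tags with this start, the other bases were rare, with A at 5.46 RPM with DMSO and 7.21 with AICAR and T at 3.13 and 4.36. These bases match neither miRNA.

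The share of miR-107 among the reads that tell the miRNAs apart depended on the tag length more than on the library. At 22 nt it was 13.5% (13.1 to 14.0) with DMSO and 14.3% (13.9 to 14.7) with AICAR. At 23 nt it was 9.36% (9.16 to 9.57) and 9.93% (9.78 to 10.1). At 24 nt it was 1.48% (0.999 to 2.20) and 1.44% (1.10 to 1.87). MiR-103 was the more abundant at each of these lengths in both libraries, and its excess over miR-107 was greatest in the longest tags. The 25 nt tag with both A bases had 864 reads with DMSO and 1844 with AICAR for Mir103-2, a fold of 1.91 (1.76 to 2.07), while the tag of the same length of miR-107, whose hairpin also encodes A A there, had 5 and 7 reads.

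The hairpins Mir103-1 and Mir103-2 could be told apart only by rare tags, since their 3p arms are the same up to the 24th base. Tags on the 3p side of Mir103-2 that match no other hairpin had 884 reads with DMSO and 1865 with AICAR. Those of Mir103-1 had 4 and 8 reads. A base added after processing gives the same tag as an encoded one, so these counts do not measure how much each hairpin contributes. On the 5p arm, where the first base differs, miR-103-1-5p had 9 and 7 reads and miR-103-2-5p 21 and 27, and neither interval of the fold change left out 1. The 5p arms are the passenger strands of this family. They made up 0.00779% of the arm reads of Mir103-1 with DMSO and 0.00351% with AICAR, and 0.0182% and 0.0135% of those of Mir103-2. MiR-107-5p had 0 and 2 reads, both at or under the limit of 3 reads (0.159 RPM with DMSO and 0.142 RPM with AICAR), so no fold change is given.

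MiR-33-5p, the arm that represses cholesterol export, was found at a moderate level. It had 1984 reads (105 RPM) with DMSO and 3267 (155 RPM) with AICAR, a fold of 1.47 (1.39 to 1.56). The most read tag was the 21 nt mature sequence printed above, with 1353 and 2632 reads and a fold of 1.74 (1.63 to 1.86). The 18 nt tag went the other way, with 257 and 127 reads and a fold of 0.442 (0.355 to 0.549). All reads of miR-33-5p started at the same base in both libraries, so its seed did not vary. The 5p arm made up 99.0% (98.5 to 99.4) of the arm reads of Mir33 with DMSO and 99.5% (99.2 to 99.7) with AICAR.

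On the 3p side of Mir33 the most read tag was not the mature miR-33-3p but a 19 nt piece that begins in the loop, shown here because the assignment of tags took it as the arm.
loop tag of Mir33: tgttctggcaatacctgtg
With its 18 nt form it had 20 reads with DMSO and 16 with AICAR, a fold of 0.716 (0.347 to 1.45). Tags at the ends of the RefSeq miR-33-3p had 7 and 8 reads, and none was identical to the mature sequence. MiR-33-3p, the passenger strand, was therefore near the limit of what this depth can count in both libraries.

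MiR-378a-3p, known for its part in mitochondrial metabolism and fat storage, had 4987 reads (264 RPM) with DMSO and 9065 (430 RPM) with AICAR, a fold of 1.63 (1.57 to 1.68). Its tags of 21 nt and 22 nt were about equally frequent, with 2358 and 2449 reads with DMSO and 4386 and 4498 with AICAR, and had folds of 1.66 and 1.64. The balance of both forms was thus the same in the libraries within counting error, at 47.3% (45.9 to 48.7) and 48.4% (47.4 to 49.4) for the 21 nt form. Of its tags, 4 also match Mir378c and held 150 reads with DMSO and 137 with AICAR, and without shared tags 4837 and 8928 reads remained. MiR-378a-5p, the passenger strand, had 7 and 12 reads, or 0.140% (0.0679 to 0.289) and 0.132% (0.0756 to 0.231) of the arm reads.

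MiR-122-5p, which is typical of liver and not of ES cells, was the member with the greatest fold change and the lowest level of the 5 main arms. It had 55 reads (2.91 RPM) with DMSO and 536 (25.4 RPM) with AICAR, a fold of 8.72 (6.60 to 11.7). Among the 509 arms tested, 3 had a higher fold change. No rank is given among the arms with at least 10 RPM, because miR-122-5p reached that level in the AICAR library only. The reads came from 5 tags that all start at the same base, and the 3p side of the hairpin had 0 reads in both libraries, which allows up to 3 reads, or 0.159 and 0.142 RPM.

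The tags of miR-122-5p did not differ by the same factor at each length. The 22 nt tag had 42 and 268 reads, a fold of 5.71 (4.11 to 8.10). The 21 nt tag had 8 and 152 reads, a fold of 17.0 (8.41 to 40.1), and the 23 nt tag had 5 and 105, a fold of 18.8 (7.80 to 59.1). The 22 nt tag thus made up 76.4% (63.7 to 85.6) of the reads with DMSO and 50.0% (45.8 to 54.2) with AICAR, and these intervals do not overlap.

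The other miRNAs of a liver list were set beside miR-122-5p. MiR-101b-3p had 48608 reads with DMSO and 37542 with AICAR, a fold of 0.691 (0.682 to 0.700). MiR-192-5p, with 10966 and 12237 reads, and miR-148a-3p, with 650 and 707, had folds of 0.998 (0.973 to 1.02) and 0.973 (0.874 to 1.08). None of the 4 other arms of the list that were tested was past the fold in either direction. The reads of the whole list summed to 3201 RPM with DMSO and 2425 RPM with AICAR, mostly from miR-101b-3p at 2576 and 1780 RPM. MiR-192-5p stood at 581 and 580 RPM and miR-148a-3p at 34.4 and 33.5 RPM, both above the level of miR-122-5p in either library. The part of other cells or of RNA from outside the culture in the reads of miR-122-5p was not tested.

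**Figure D2:**
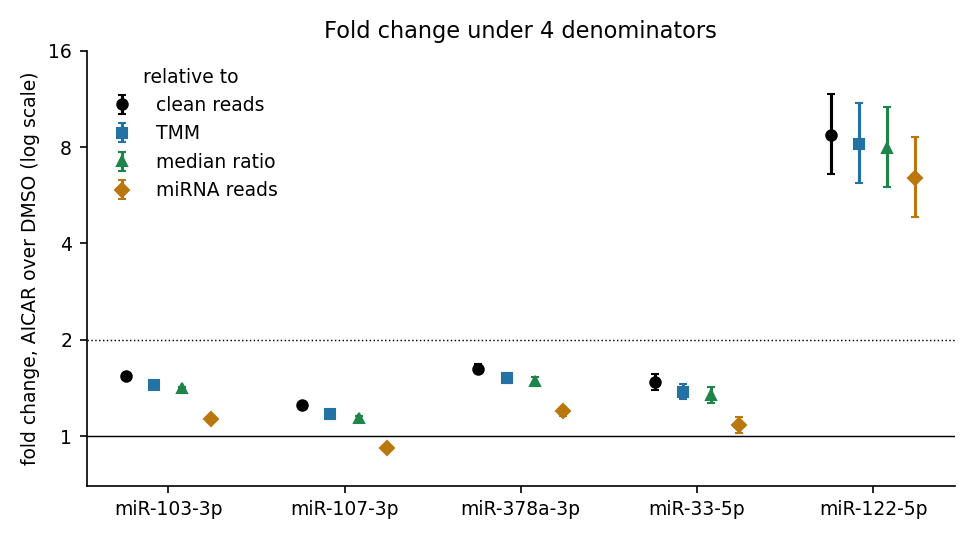
Fold change of the 5 main arms, AICAR over DMSO (log scale), with the reads taken relative to all clean reads, TMM or median-ratio scaling, or the reads assigned to miRNAs; bars are 95% counting intervals of 1 library against 1, the solid line marks 1 and the dotted line 2. MiR-122-5p lay above 2 under all 4, and the other arms lay below 2. MiR-107-3p, counted with the tags it shares with miR-103-3p, lay below 1 relative to miRNA reads.

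The size of the moderate differences depended on what the reads were divided by. MiRNA reads were a greater part of the AICAR library, and with these in place of clean reads the values became 1.13 for miR-103-3p, 1.08 for miR-33-5p, 1.19 for miR-378a-3p and 6.40 for miR-122-5p. MiR-107-3p, counted with the shared tags, turned to 0.918. Tags that match only miR-107, at 1.73 relative to clean reads, were not put on this scale. The scale lowered the median log2 fold change of all arms from 0.13 to −0.31 and that of the 7 arms from 0.56 to 0.11. Of the 509 arms, 61 were at or above 2 and 52 at or under 0.5 relative to clean reads, but 24 and 113 relative to miRNA reads. Since all values are relative to the reads of a library, more miRNA and less of other sRNA cannot be told apart.

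The libraries also differed in tag length. In the miR-103 and miR-107 family, the fold change was 0.347 (0.281 to 0.426) for 18 nt tags, 0.801 (0.750 to 0.856) at 20 nt, 1.29 (1.27 to 1.31) at 22 nt and 1.79 (1.77 to 1.80) at 23 nt. The pooled tags of all other hairpins had folds of 0.438 at 18 nt, 0.665 at 20 nt, 1.47 at 22 nt and 1.53 at 23 nt. Short tags were thus lower and long tags higher with AICAR in the family as in the rest of the miRNAs. The family reached a higher value than the rest at 24 nt, with 2.07 (1.96 to 2.20) against 1.65 (1.64 to 1.66), and lay below the rest at 22 nt.

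**Figure D3:**
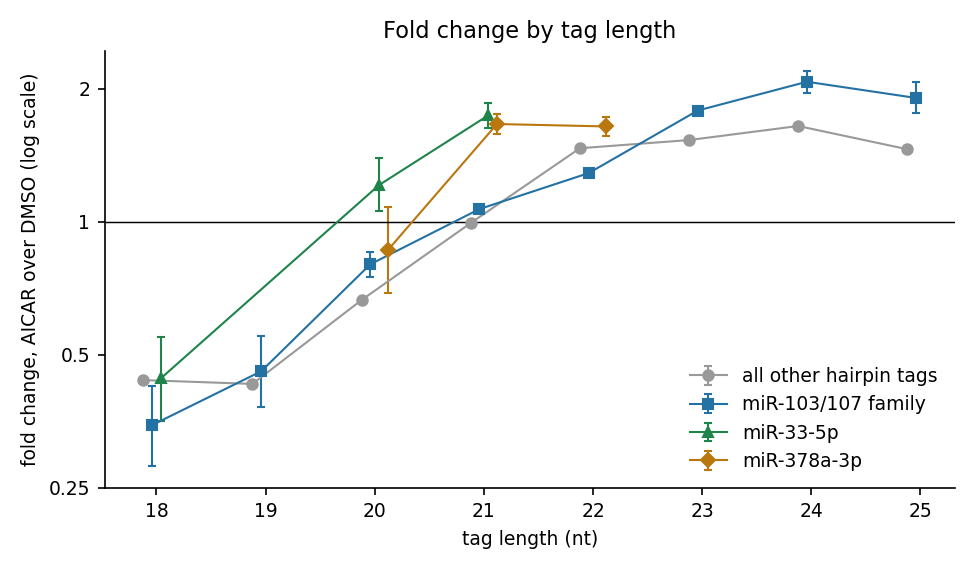
Fold change, AICAR over DMSO (log scale), of the reads of each tag length in nt for the miR-103 and miR-107 family, miR-33-5p, miR-378a-3p and the tags of all other hairpins, with 95% counting intervals; lengths with fewer than 20 reads in a library are left out. The family went from 0.347 at 18 nt to 2.07 at 24 nt, and miR-33-5p from 0.442 at 18 nt to 1.74 at 21 nt.

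Tags shorter than 21 nt made up 2.02% of the family with DMSO and 0.903% with AICAR, and 31.5% (29.5 to 33.6) and 19.1% (17.8 to 20.5) of miR-33-5p. For miR-378a-3p the shares were 3.51% (3.03 to 4.06) and 1.82% (1.56 to 2.12), and for all other hairpins 9.94% and 4.01%. MiR-122-5p had 0 of 55 reads of this kind with DMSO, which allows up to 6.53%, and 11 of 536 or 2.05% (1.15 to 3.64) with AICAR, so that no direction can be given. The mean length was greater with AICAR by 0.182 nt for miR-103-3p, 0.288 nt for miR-107-3p, 0.307 nt for miR-33-5p and 0.0249 nt for miR-378a-3p, while for miR-122-5p it was 21.95 nt with DMSO and 21.87 nt with AICAR. Over the 293 arms with at least 100 reads in each library, the median difference was 0.0959 nt and 255 arms, or 87.0%, were longer with AICAR. The part of RNA quality or size selection in the differences of length was not tested.

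The 5′ end sets the seed and was steady in these miRNAs. Reads that started at another base than the main tag made up 0.958% (0.904 to 1.02) of miR-103-3p with DMSO and 0.654% (0.619 to 0.690) with AICAR, and 0.243% (0.195 to 0.303) and 0.144% (0.113 to 0.183) of miR-107-3p. In miR-378a-3p they made up 2.17% (1.80 to 2.61) and 2.21% (1.92 to 2.53). None was found in the 1984 and 3267 reads of miR-33-5p or the 55 and 536 of miR-122-5p. The most read of the shifted tags begins at the third base of miR-103-3p, and its altered seed is shown in capitals.
shifted tag of miR-103: cAGCATTGtacagggctatga
This tag of 21 nt had 691 reads with DMSO and 803 with AICAR, a fold of 1.04 (0.938 to 1.15). The 23 nt tag that ends at the same base stood at 1.77. At 21 nt, however, the tags of the family stood at 1.07 and those of all other hairpins at 0.994, so the value of the shifted tag was near that of its length.

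Bases that the hairpin does not encode, which terminal transferases add to the 3′ end of miRNAs, were read from tags that match up to their last base. A misread last base gives the same tag, and a base that the hairpin encodes next cannot be counted as added. MiR-378a-3p had the most among the abundant members, with 1 added base in 14.1% (13.2 to 15.0) of its reads with DMSO and 14.9% (14.3 to 15.6) with AICAR. Adenine made up 9.22% (8.50 to 9.99) and 8.71% (8.19 to 9.26), and uridine 4.60% (4.09 to 5.17) and 5.95% (5.52 to 6.42). The uridine share was thus higher with AICAR, without overlap of the intervals, whereas the adenine share was not distinguishable at this depth.

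The miR-103 and miR-107 family had mostly uridine, at 3.74% (3.64 to 3.84) with DMSO and 4.12% (4.04 to 4.21) with AICAR, and adenine at 0.659% (0.617 to 0.704) and 0.581% (0.550 to 0.612). In the family too, the uridine share was higher with AICAR without overlap of the intervals, and the adenine share was lower without overlap. Shares of added bases over the other miRNA arms are not given here, so these differences cannot be called particular to the group. MiR-33-5p had adenine almost alone, in 108 of its 111 added bases with DMSO and 213 of 222 with AICAR, or 5.16% (4.29 to 6.19) and 6.10% (5.36 to 6.95). MiR-122-5p also had mainly adenine, in 5 and 78 reads, or 8.33% (3.61 to 18.1) and 12.4% (10.1 to 15.3), and uridine in 0 and 11. For the family and for each of the other 3 miRNAs, the leading base among those counted was the same in both libraries. The hairpins encode adenine after the 22 and 23 nt forms of the family. They encode uridine after the 21 nt form of miR-33-5p and the 22 nt form of miR-122-5p. Which base was added most can therefore not be told for these miRNAs.

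**Figure D4:**
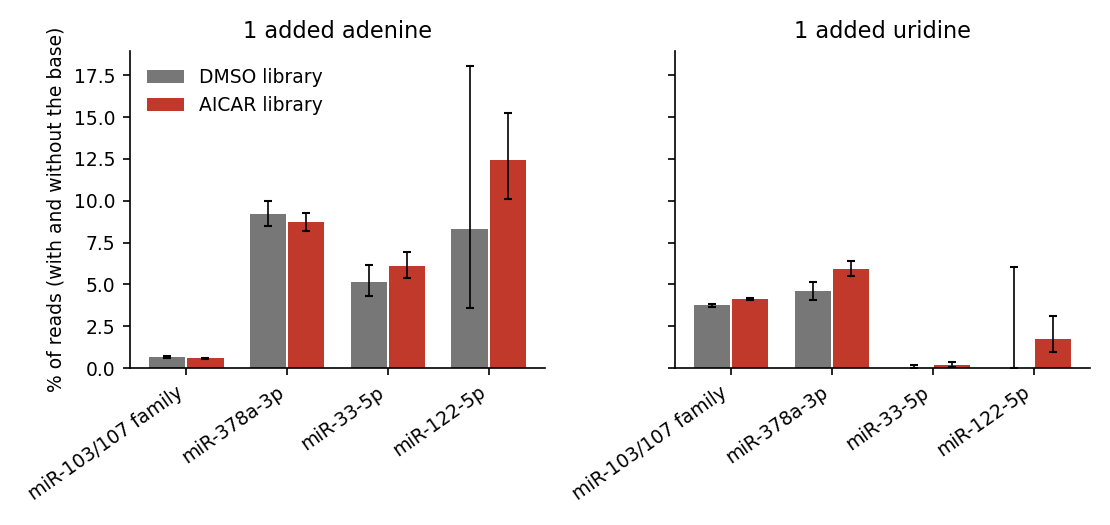
Percent of reads with 1 added adenine (left) or uridine (right) that the hairpin does not encode, out of the reads with and without an added base, for the family and the other main arms in the DMSO library (grey) and the AICAR library (red); bars have 95% Wilson intervals of counting error. Among the bases that could be counted, adenine led in miR-378a-3p, miR-33-5p and miR-122-5p, and uridine in the family. A base that the hairpin encodes next is not counted as added.

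The 23 nt forms of miR-103-3p and miR-107-3p, which differ by G22C alone, also differed in what followed them. A uridine, which none of the 3 hairpins encodes there, followed miR-103-3p in 2651 reads or 3.67% (3.53 to 3.81) with DMSO and in 5253 reads or 3.67% (3.57 to 3.76) with AICAR. It followed miR-107-3p in 66 reads or 0.910% (0.716 to 1.16) and in 153 reads or 0.996% (0.850 to 1.17). The share of miR-103-3p was higher in both libraries without overlap of the intervals, and neither share differed between the libraries beyond counting error. An adenine, which all 3 hairpins encode as the next base, followed miR-103-3p in 2.24% (2.13 to 2.35) and 2.61% (2.53 to 2.69) of the reads. It followed miR-107-3p in 0.333% (0.224 to 0.495) and 0.354% (0.271 to 0.461). Longer ends of either kind were thus rarer on miR-107-3p than on miR-103-3p in both libraries.

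**Figure D5:**
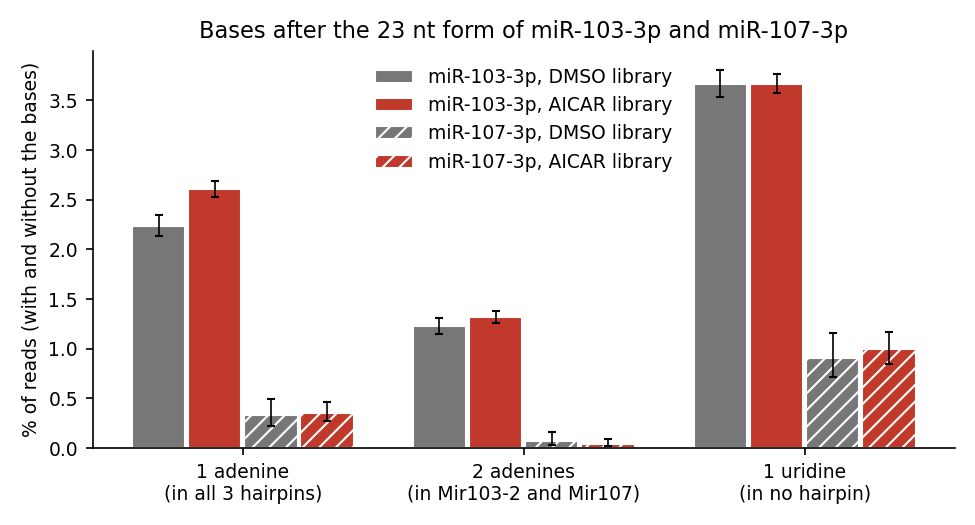
Percent of reads in which 1 adenine, 2 adenines or 1 uridine follows the 23 nt form of miR-103-3p (plain) or miR-107-3p (hatched), out of the reads with and without these bases, in the DMSO library (grey) and the AICAR library (red), with 95% Wilson intervals of counting error. For uridine the bars stand at 3.67% in both libraries for miR-103-3p, and at 0.910% and 0.996% for miR-107-3p.

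Fragments of the host messages were few in these sRNA libraries. Tags of at least 20 nt that match the spliced Srebf2 message and no other gene had 60 reads with DMSO and 66 with AICAR, a fold of 0.984 (0.683 to 1.42). Pank1 had 6 and 9 reads, Pank2 23 and 22, and Pank3 15 and 11, and no interval of these fold changes left out 1. Ppargc1b had 9 and 2 reads, and since the AICAR count lies under the limit of 3 reads, no fold change is given. Counts of such fragments do not measure the level of the message.

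Other miRNAs with roles in lipid, glucose or fat cell metabolism were taken as a list of 35 hairpins, of which 34 had reads. Of the 39 arms tested, 2 were at or above a fold of 2 and 4 at or under 0.5, beside 12% and 10.2% of all arms, so the list did not stand out by its counts. The median log2 fold change was 0.19, beside 0.13 for all arms. With at least 10 RPM, miR-365-3p, which has a part in the formation of brown fat, had 230 reads with DMSO and 593 with AICAR, a fold of 2.31 (1.98 to 2.70). MiR-758-5p, from a hairpin whose other arm represses Abca1, had 306 and 105 reads, a fold of 0.307 (0.244 to 0.384).

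No miRNA outside the group can be tied to a member by its pattern over 2 libraries, so the nearest arms are given by level only, as the distance in log2 RPM. MiR-122-5p lay nearest to miR-129-1-3p, at a distance of 0.27, which had 66 reads with DMSO and 510 with AICAR. Next came miR-345-5p with 111 and 381 reads. MiR-103-3p lay nearest to miR-140-3p and miR-423-5p, miR-107-3p to miR-669c-5p and the miR-92 3p arm, miR-33-5p to miR-17-5p and let-7b-5p, and miR-378a-3p to miR-124a-3p and miR-291b-5p.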

How the data were processed

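RNA of J1 mouse ES cells was size-selected at 18 to 30 nt and sequenced as 50 nt reads, with 1 library for AICAR and 1 for DMSO. The authors removed low-quality and contaminant reads and deposited, for each library, the distinct clean tags with their length, sequence and read count. These deposited counts are not normalized and hold no alignment, so mm9, the build in the submitters' processing notes, was not needed. The label names a TruSeq RNA kit, and which sRNA kit was used is not given in the sources used here.

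Tags were matched without mismatch to the hairpins of GENCODE M21 (GRCm38). The most read tag on each side of a hairpin was the reference, and tags were assigned to the arm if they began within 2 nt and ended within 4 nt of its ends. Tags that match several miRNAs were counted in full for each. Counts were divided by clean reads and scaled to 1000000 (RPM), and arms reaching 1 RPM in either library were held against fold changes of 2 and 0.5. Fold changes have exact binomial and shares Wilson 95% intervals. A count of 0 allows up to 3 reads. With 1 library for each condition no p-value is given. Alternatives were other denominators (edgeR TMM, median ratio, miRNA reads), end, length, mismatch and filter rules, the RefSeq references, and a Fisher exact p of at most 0.01 as an added call. The arms named are all arms of the 6 hairpins, arms of the metabolism list past the fold that reached 10 RPM, liver arms that reached 10 RPM, the 2 nearest arms in level and miRNAs that share reads; arms named beyond this rule were chosen after their values were seen. The members and lists were chosen with earlier results of these data known. The steps were tested on simulated data. Python 3.11.15, numpy 2.4.6, scipy 1.17.1, matplotlib 3.10.9, R 4.3.3 and edgeR 4.0.16 were used.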

Additional observations from a re-analysis of the deposited data

How the results depend on the processing

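No called value changed direction, and miR-122-5p was the only one of the 5 main arms past the fold under each alternative. MiR-107-3p, which was not called, lay below 1 relative to miRNA reads when counted with the shared tags. The fold changes of miR-103-3p, miR-107-3p, miR-33-5p and miR-378a-3p were 1.44, 1.17, 1.38 and 1.52 with TMM, and 1.41, 1.14, 1.34 and 1.48 with median-ratio scaling. Relative to miRNA reads they were 1.13, 0.918, 1.08 and 1.19, and 6.40 for miR-122-5p. With tags identical to the reference tag, miR-103-3p stood at 1.77, miR-107-3p at 1.07, miR-33-5p at 1.74 and miR-122-5p at 5.71. The reference tag of miR-107-3p was the 21 nt tag it shares with miR-103-3p, and its own 23 nt tag stood at 1.89. With tags of at least 21 nt, miR-103-3p stood at 1.56, miR-107-3p at 1.29 and miR-33-5p at 1.74, and with tags of the arm alone, miR-103-3p at 1.67 and miR-107-3p at 1.73. Without a filter, 2 members were past 2, the second being miR-107-5p at 0 and 2 reads. The 5p share of Mir33 was 100% in both libraries with tags of at least 21 nt. Shifted 5′ ends then made up 0.779% (DMSO) and 0.561% (AICAR) of miR-103-3p, 0.0852% and 0.0544% of miR-107-3p, and 1.70% of miR-378a-3p with DMSO. With tags of the arm alone they made up 1.12% and 0.722% of miR-103-3p, and 0.154% and 0.0796% of miR-107-3p.

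Of all arms, 61 were past 2 and 52 past 0.5. These counts were 23 and 26 at 10 RPM, 278 and 227 without a filter, 24 and 113 relative to miRNA reads, 50 and 66 with TMM, 48 and 69 with median-ratio scaling, and 72 and 33 for tags of at least 21 nt. Leaving out the loop tag of Mir33, an alternative chosen after seeing the data, left 1 member past 2 and 0 past 0.5. No paired analysis was possible because each condition has 1 library and the labels give no replicate numbers. For the same reason no library could be left out, and no test with a spread between replicates could be fitted. At 55 reads with DMSO, the depth limits miR-122-5p most, and the rarer arms, with fewer than 30 reads in each library, allow no statement on a change.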

Other observations

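Lists of miRNAs typical of other tissues were summed in both libraries. The heart and muscle list had 183 RPM with DMSO and 294 with AICAR, the brain list 346 and 567, the blood list 31.7 and 25.1, and the fibroblast list 208 and 208. Single arms of these lists also had high fold changes. MiR-129-1-3p (brain) stood at 6.91 (5.34 to 9.08), miR-499-5p (heart and muscle) at 4.03 (3.62 to 4.49), miR-145a-5p (fibroblast) at 2.73 (2.21 to 3.39) and miR-129-2-3p (brain) at 2.43 (2.21 to 2.67). Others were low, with miR-143-5p (fibroblast) at 0.422 and miR-219a-2-3p (brain) at 0.497. At or above 2 were 2 of 11 brain arms tested, 1 of 3 heart and muscle, 1 of 4 fibroblast and 0 of 3 blood arms. At or under 0.5 were 1, 0, 1 and 0, respectively. Over all arms tested, 12% and 10.2% were past these limits. MiR-122-5p was thus not the only arm past 2 among miRNAs typical of other tissues. Beyond the reads shared with miR-378a-3p, the related miR-378c-5p had 3 and 2 reads of its own.

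In the metabolism list, abundant arms differed less than miR-122-5p. MiR-185-5p, known to lower cholesterol uptake, had 18184 reads with DMSO and 24057 with AICAR, a fold of 1.18 (1.16 to 1.21). The miR-128 3p arm had 18425 and 21002 reads, a fold of 1.02 (1.000 to 1.04). MiR-27a-3p and miR-27b-3p, which act in fat cell formation, were counted together, with the tags of either hairpin. They had 4803 and 2855 reads, a fold of 0.532.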
